A study of Rattus norvegicus with 23 samples.

Results

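The thin filament of the heart muscle cell was described through 9 genes, those for the cardiac and skeletal alpha-actins (Actc1, Acta1), the 3 subunits of cardiac troponin (Tnnt2, Tnni3, Tnnc1), alpha- and beta-tropomyosin (Tpm1, Tpm2) and the proteins leiomodin 2 and tropomodulin 1 (Lmod2, Tmod1). The members were taken by gene symbol, not by their values, and all 9 were among the 10723 genes with values per library and among the 11283 genes of each of the authors' deposited tables. The tissue was myocardium of Sprague-Dawley rats. Every animal had a myocardial infarction (MI), for which the left coronary artery was ligated at a left thoracotomy. In the second group (MI+TRD) a later operation implanted a device that the labels call TRD and do not describe. Values per library were used for 6 MI and 6 MI+TRD libraries at 12 weeks after surgery. For the 6 MI and 5 MI+TRD samples at 6 weeks only the authors' deposited comparison was used. No sham-operated or uninjured heart was among the samples, the labels give neither age nor the place of the sampled piece relative to the scar, and nothing in them says that replicates were separate animals, so a p-value here reflects only how far the samples spread, which may be technical.

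In striated muscle, thin filaments are double strands of actin along which tropomyosin runs as a coiled coil. Tropomyosin covers the myosin-binding sites of actin until calcium binds troponin C, after which troponin I releases its hold and tropomyosin moves aside. Troponin T anchors the complex to tropomyosin. Tropomodulin caps the pointed end of the filament, and leiomodin binds there and lengthens it. In the adult rat ventricle the cardiac actin, alpha-tropomyosin and cardiac troponin genes are the main forms, while skeletal alpha-actin and beta-tropomyosin are known as forms of the fetal heart that can return under load. Beta-tropomyosin is also made by smooth muscle.

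The upstream sequences of both isoform pairs are shown because the ratios of these pairs were compared between libraries. Each is the 250 bases before the RefSeq transcription start (build GRCr8), read 5′ to 3′ on the gene's strand. Capitals mark the CArG box, which serum response factor binds, the TATA box (TATAAA) and the M-CAT element (CATTCC), each searched on both strands. The windows lie at chr3:121271828-121272077 (minus strand) for Actc1, chr19:68784195-68784444 (minus) for Acta1, chr8:76543416-76543665 (minus) for Tpm1 and chr5:62575727-62575976 (minus) for Tpm2.
Actc1: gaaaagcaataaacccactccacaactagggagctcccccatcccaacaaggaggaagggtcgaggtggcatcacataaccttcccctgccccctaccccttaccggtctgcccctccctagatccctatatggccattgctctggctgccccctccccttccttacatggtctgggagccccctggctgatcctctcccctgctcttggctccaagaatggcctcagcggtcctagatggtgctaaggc
Acta1: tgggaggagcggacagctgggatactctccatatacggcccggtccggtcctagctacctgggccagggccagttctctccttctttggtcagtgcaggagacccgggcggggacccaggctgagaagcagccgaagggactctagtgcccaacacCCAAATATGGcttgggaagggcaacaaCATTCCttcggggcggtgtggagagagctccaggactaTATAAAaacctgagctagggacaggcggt
Tpm1: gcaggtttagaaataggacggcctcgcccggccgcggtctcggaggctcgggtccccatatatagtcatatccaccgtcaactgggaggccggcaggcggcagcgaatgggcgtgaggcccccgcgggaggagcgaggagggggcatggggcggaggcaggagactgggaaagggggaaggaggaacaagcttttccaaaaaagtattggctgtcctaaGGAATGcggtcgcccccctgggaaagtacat
Tpm2: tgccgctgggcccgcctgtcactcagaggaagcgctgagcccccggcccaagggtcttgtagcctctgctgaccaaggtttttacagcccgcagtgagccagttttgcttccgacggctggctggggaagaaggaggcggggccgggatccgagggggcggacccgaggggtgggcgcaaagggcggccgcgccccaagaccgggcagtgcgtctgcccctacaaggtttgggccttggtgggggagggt

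Only the Acta1 window held all 3 motifs, with the CArG box 94, the M-CAT element 67 and the TATA box 29 bases before the start. The Tpm1 window held an M-CAT element 31 bases before the start, and the Actc1 and Tpm2 windows held none of these letters exactly. Over all 9 windows of the 8 members matched in RefSeq (Tnnt2 had 2 starts and Tnnc1 was not matched), a CArG box stood in 1, an M-CAT element in 3 and a TATA box in 1. Among 33469 windows of the same length in the genome, 1.50% held a CArG box, 12.1% an M-CAT element and 12.9% a TATA box. A match describes letters and not a bound site.

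The libraries held 7197118 to 10304156 reads, recovered from the steps of the deposited values. Each member drew at least 209 reads in every library, the fewest in Tpm2. Together the 9 genes made up 3.63% to 4.67% of the summed values in MI and 3.68% to 4.55% in MI+TRD. The deposited values lay lower in MI+TRD over the whole table, with a median log2 fold change of −0.14 over the 10623 genes tested, so fold changes are given on the deposited scale and again relative to that median. The MI+TRD libraries of replicates 1, 4 and 5 stood apart in having low values of genes with a short genomic span. Over 1800 genes spanning up to 6 kb, their median deviations were −0.34, −0.30 and −0.31 (log2), against −0.0096 to 0.23 in the other 9 libraries. The hemoglobin gene Hba2 was also highest in them, at 88.3, 233.7 and 464.7 against at most 25.7 in the other 9. Other red cell markers did not follow in all of them. Hbb was at 83.2, 175.6 and 201.6 in MI+TRD replicates 1, 4 and 5, and was highest, at 306.7, in MI replicate 4. Slc4a1 was highest there too, at 35.6. Hba-a1 and Alas2 were highest in MI+TRD replicate 5, at 12.6 and 11.8, but at 1.85 and 1.25 in MI+TRD replicate 1. The 5 red cell markers summed to 81.9 to 364 in MI and 186 to 701 in MI+TRD. In MI+TRD replicate 6 the summed leukocyte and fibroblast markers, at 295 and 3093, exceeded the highest MI sums of 49.5 and 1163. So did the leukocyte sum of MI+TRD replicate 2, at 59.8, and the fibroblast sum of MI+TRD replicate 5, at 1383. The fibroblast sum of replicate 6 came mostly from collagens (Col1a1 1073, Col3a1 986, Col1a2 610). Postn (43.8) and Pdgfra (44.9) also lay above the MI range there, while Dcn (278) and Lum (57.7) lay within it. Of 6 markers of epicardium and mesothelium 5 were measured and 4 tested. Msln, Upk1b and Krt8 lay higher in MI+TRD at an unadjusted limma p below 0.05, against 2.80% of all genes. The remaining tested marker, Wt1, lay at 0.36 relative to all genes (unadjusted limma p 0.442) and ran from 8.49 to 22.0 in MI. The median of the 4 tested markers was 1.95 relative to all genes. Their list summed to 9.30 to 24.3 in MI and 15.5 to 83.7 in MI+TRD, most in replicate 6. The part of red cells or of epicardium in the members' values was not tested. Tissue of several cell types was sequenced in bulk, so fewer muscle cells and less RNA per muscle cell cannot be told apart.

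At 12 weeks all 9 genes had a lower mean log2 value in MI+TRD than in MI, and none passed the test over all genes. In the limma fit 4 of the 9, Tnnc1, Tpm1, Lmod2 and Tnni3, lay lower at an unadjusted p below 0.05 and 0 lay higher, against 19.1% of all genes lower and 2.80% higher. The share of all genes passing an adjusted p of 0.05 with limma was 0.00%. The median log2 fold change of the 9 genes was −0.32, or −0.18 relative to all genes. With median ratio scaling, equal totals, quantile normalization or edgeR on recovered reads 1 of the 9, Tnnc1, was lower at an unadjusted p below 0.05, where 877, 412, 1043 and 777 of the 10623 genes were. Without MI+TRD replicates 1, 4 and 5 none of the 9 was, and 1031 of all genes were. With 3 libraries fewer, Tnni3 still lay at −0.39 and Lmod2 at −0.25, and Tnnc1 and Tpm1 at −0.36 and −0.26, on the deposited log2 scale. By the exact Wilcoxon test 5 of the 9 were lower, Tnnt2 being the fifth, where 1642 of all genes were. The direction itself depended on scaling for some members: with equal totals Actc1, Tpm2 and Tmod1 lay above 0, with quantile normalization Actc1, Tnnt2, Tpm1 and Tmod1 did, and with edgeR and DESeq2 on recovered reads Tpm2 did.

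**Figure D1:**
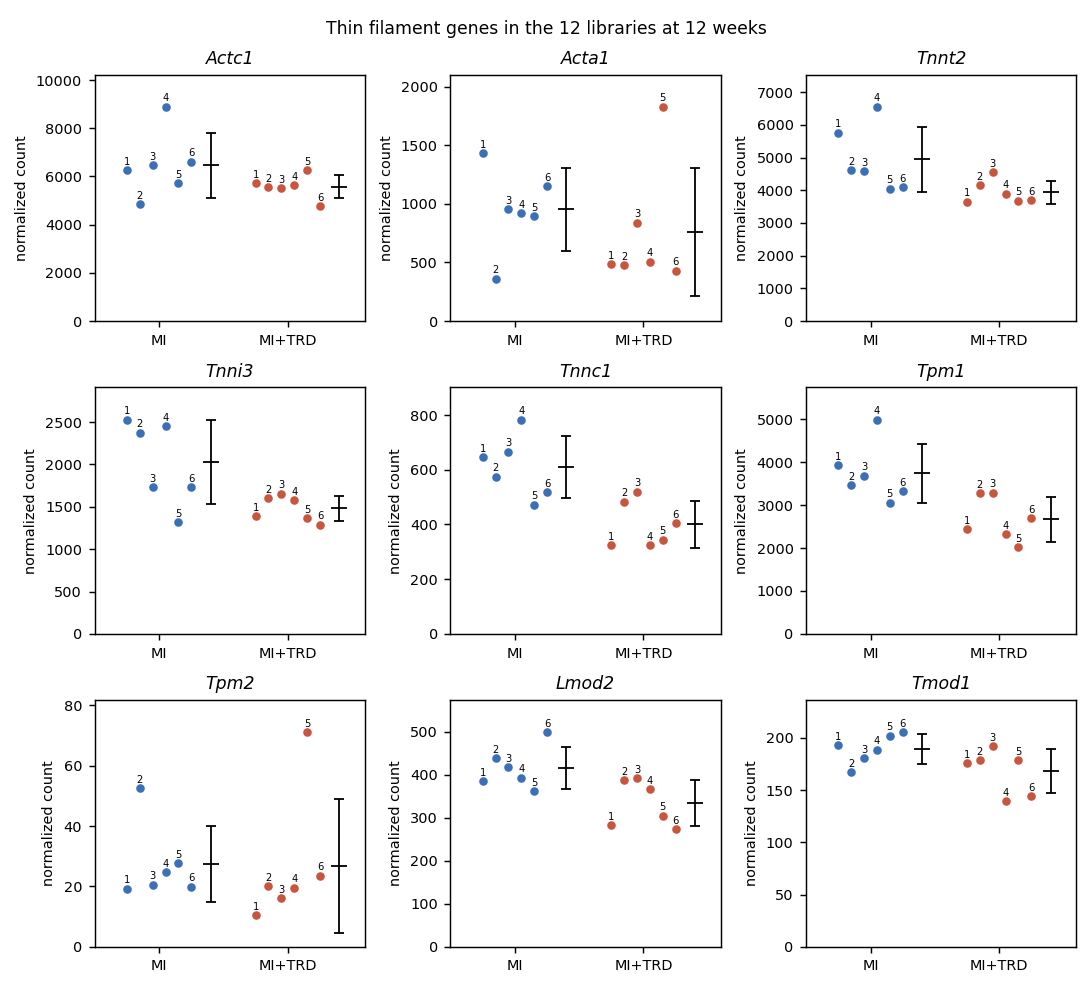
Normalized counts of the 9 thin filament genes at 12 weeks, each panel from 0. Points are libraries numbered by replicate (6 MI, blue; 6 MI+TRD, red), and the bar beside each group is its mean ± SD. Tnnc1 and Tpm1 are lowest in MI+TRD replicates 1, 4 and 5, and Acta1 and Tpm2 are highest in MI+TRD replicate 5.

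Cardiac alpha-actin forms most of the filament's backbone in the adult ventricle. The normalized count of Actc1 (chromosome 3, 105507403 to 105512940, rn6, minus strand) ran from 4835 through a median of 6361 to 8894 in MI, and from 4759 through 5584 to 6259 in MI+TRD. MI replicates 1, 3, 4 and 6 lay above every MI+TRD library, MI replicates 2 and 5 lay among them, and 1 MI+TRD library was below the lowest MI library. The log2 fold change was −0.19 (SE 0.20; limma adjusted p = 0.610), or −0.052 relative to all genes, and 0.10 relative with the trend over gene span removed. The spread was narrower with the device, at a coefficient of variation of 8.65% against 21.0% in MI, a difference that was not tested.

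Skeletal alpha-actin varied more than its cardiac counterpart, with coefficients of variation of 37.2% in MI and 71.4% in MI+TRD. Acta1 (chromosome 19, 56674072 to 56677085, minus strand) ran from 359.9 through a median of 937 to 1433 in MI, and from 430.1 through 496 to 1828 in MI+TRD. In MI+TRD, 4 libraries lay between 430.1 and 507.7, below every MI library other than replicate 2, while MI+TRD replicate 5 was the highest of all 12. Against MI the log2 fold change was −0.43 (SE 0.37; limma adjusted p = 0.522), or −0.29 relative to all genes, and −0.075 relative with the trend over gene span removed. Without MI+TRD replicate 5 the relative value was −0.57, without MI replicate 2 it was −0.56, and neither passed over all genes, though the first had an unadjusted limma p of 0.0277. Acta1 and Actc1 encode closely alike actins. Their sequences were not compared here, and how reads matching both would be counted is not given in the sources used here.

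The ratio of the actins within a library does not depend on how libraries were scaled. The log2 ratio of Acta1 to Actc1 was −2.85 ± 0.57 over the MI libraries against −3.09 ± 0.72 over the MI+TRD ones (SD, n = 6; two-sided exact permutation p = 0.530, adjusted p = 0.636 over 6 ratios). It spanned −3.75 to −2.13 in MI and −3.56 to −1.78 in MI+TRD, and 4 of 6 MI+TRD ratios lay below 5 of 6 MI ratios. The difference of −0.24 moved with single libraries, to −0.50 when MI+TRD replicate 5 was left out, to −0.42 when MI replicate 2 was, and to −0.094 when MI replicate 1 was. Over the single libraries left out, the smallest exact permutation adjusted p was 0.370.

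Alpha-tropomyosin, the main cardiac form, was among the lower members. Tpm1 (chromosome 8, 72814738 to 72841497, minus strand) ran from 3059 through a median of 3573 to 4993 in MI, and from 2017 through 2568 to 3292 in MI+TRD. In MI+TRD 4 libraries lay below the lowest MI library, and replicates 2 and 3, at 3277 and 3292, lay within the MI range. The log2 fold change was −0.49 (SE 0.19; limma adjusted p = 0.166), or −0.35 relative to all genes. Without MI+TRD replicates 1, 4 and 5 the relative value was −0.11 (limma adjusted p = 0.541). With the trend over gene span removed it was −0.39, and Tpm1 spans 26760 bases. With quantile normalization it was 0.092.

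Beta-tropomyosin was scarce and uneven. Tpm2 (chromosome 5, 59016621 to 59025632, minus strand) ran from 19.2 through a median of 22.6 to 52.5 in MI, and from 10.5 through 19.8 to 71.0 in MI+TRD. All but 2 of the 12 libraries lay between 10.5 and 27.6, the exceptions being MI replicate 2 and MI+TRD replicate 5. Against MI the log2 fold change was −0.22 (SE 0.36; limma adjusted p = 0.770), or −0.080 relative to all genes. Without MI+TRD replicate 5 the relative value was −0.40 (unadjusted limma p 0.0494), and without MI replicate 2 it was 0.11. Of the alternatives run, the first alone brought Tpm2 to an unadjusted p below 0.05. The log2 ratio of Tpm2 to Tpm1 was −7.16 ± 0.64 over the MI libraries against −6.89 ± 1.09 over the MI+TRD ones (SD, n = 6; two-sided exact permutation p = 0.667, adjusted p = 0.667). Without MI+TRD replicate 5 the difference turned from 0.27 to −0.15.

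Both libraries high in Tpm2 were also high in markers of other muscle types. In MI+TRD replicate 5 the smooth muscle genes Myh11 (389.1), Tagln (159.3), Cnn1 (46.4) and Mylk (131.8) were each the highest of the 12 libraries, as were the smooth muscle actins Acta2 (102.9) and Actg2 (29.7) and leiomodin 1 (Lmod1, 28.4). The smooth muscle marker Smtn was not raised, at 66.1 in that library against 51.7 to 86.6 in MI. The 6 smooth muscle markers, all measured, summed to 2659 there, whereas MI sums ran from 1345 to 1942 and the remaining MI+TRD sums from 1058 to 1737. Desmin (Des), which heart muscle also makes in quantity, is most of each sum, at 1867 in that library and 1077 to 1677 in MI. Acta1 was highest in the same library, together with the genes Nrap (1147) and Xirp2 (972.6), for actin-binding proteins of the intercalated disc, and the slow myosin gene Myh7 (22960).
In MI replicate 2 the atrial light chain genes Myl7 and Myl4 measured 3170 and 1983, and all atrial markers (4 of 5 measured) summed to 11798, against 148 to 3346 in the other MI libraries and 46.0 to 3257 in MI+TRD. Acta1 was at its lowest there. The part of these cell types in the levels of Tpm2 and Acta1 was not tested.

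**Figure D2:**
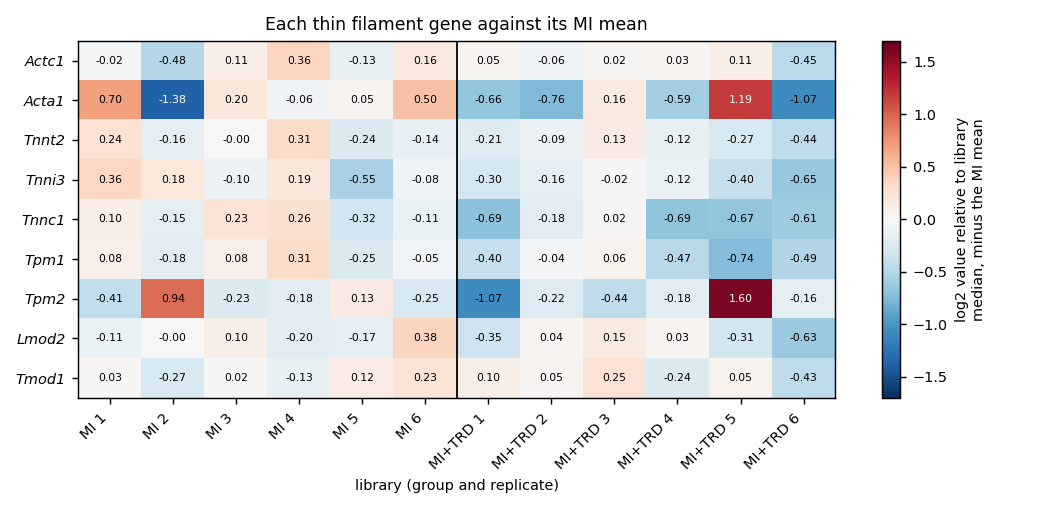
Log2 value of each thin filament gene in each library, relative to the median of all genes tested in that library and to the gene's mean over MI. Red is above and blue below the MI mean; Tpm2 reaches 1.60 and Acta1 1.19 in MI+TRD replicate 5, and Tnnc1 lies between −0.69 and −0.67 in MI+TRD replicates 1, 4 and 5.

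Troponin T ties the calcium sensor to tropomyosin. Tnnt2 (chromosome 13, 52667969 to 52680991, plus strand) ran from 4045 through a median of 4594 to 6554 in MI, and from 3649 through 3789 to 4556 in MI+TRD. In MI+TRD 4 libraries lay below the lowest MI library, and MI replicates 1 and 4 stood well above the rest. Taken relative to each library's median of all genes and to the MI mean, the lowest MI value was −0.24 (log2). On that scale only MI+TRD replicates 5 and 6 lay below it, at −0.27 and −0.44. The log2 fold change was −0.31 (SE 0.19; limma adjusted p = 0.353), or −0.17 relative to all genes.

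Troponin I is the inhibitory subunit and the target of beta-adrenergic phosphorylation. Tnni3 (chromosome 1, 72882806 to 72886491, plus strand) ran from 1320 through a median of 2053 to 2529 in MI, and from 1290 through 1483 to 1655 in MI+TRD. MI replicates 1, 2 and 4 were the highest libraries and MI replicates 3 and 6 also lay above every MI+TRD library, while MI replicate 5 lay among the MI+TRD libraries, of which 1 was lower. Against MI the log2 fold change was −0.42 (SE 0.19; limma adjusted p = 0.208), or −0.28 relative to all genes. With the trend over gene span removed the relative value was −0.079. The log2 ratio of Tnni3 to Tnnt2 was −1.30 ± 0.23 over the MI libraries against −1.41 ± 0.074 over the MI+TRD ones (SD, n = 6; two-sided exact permutation p = 0.305, adjusted p = 0.555).

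Troponin C, the calcium-binding subunit, had the smallest p of the 9 genes. Tnnc1 (chromosome 16, 7292207 to 7295239, plus strand) ran from 472.5 through a median of 610.4 to 783.4 in MI, and from 323.7 through 374.7 to 520.2 in MI+TRD. In MI+TRD 4 libraries lay below the lowest MI library, replicates 1, 4 and 5 at 323.7, 325.0 and 344.3 and replicate 6 at 405.2, while replicates 2 and 3 lay within the MI range. The log2 fold change was −0.61 (SE 0.17; limma adjusted p = 0.132), the 163rd smallest p of 10623, or −0.47 relative to all genes. In every fit with all 12 libraries its unadjusted p was below 0.05 and its relative value between −0.49 and −0.26. Without MI+TRD replicates 1, 4 and 5 the relative value was −0.21 and the unadjusted limma p 0.0674. No fit brought it past an adjusted p of 0.05.

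Within libraries, troponin C also lay low against troponin T. The log2 ratio of Tnnc1 to Tnnt2 was −3.01 ± 0.13 over the MI libraries against −3.32 ± 0.21 over the MI+TRD ones (SD, n = 6), a difference of −0.30 or 0.810-fold. The two-sided exact permutation p was 0.00866 and the adjusted p 0.0519 over 6 ratios, which misses the threshold; the smallest p the assignments allow is 0.00216. In MI+TRD 4 of 6 libraries lay below the lowest MI ratio of −3.16, and replicates 2 and 3, at −3.10 and −3.13, did not. Without MI+TRD replicate 2 or replicate 3 the exact permutation adjusted p was 0.0260, and without any other single library it ran from 0.0519 to 0.195. Pairing libraries by replicate number gave an exact permutation adjusted p of 0.188, though the labels do not say that the numbers pair them. With the trend over gene span removed the difference was −0.14 (exact permutation adjusted p = 0.429), and without MI+TRD replicates 1, 4 and 5 it was −0.12 (exact permutation adjusted p = 0.643).

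**Figure D3:**
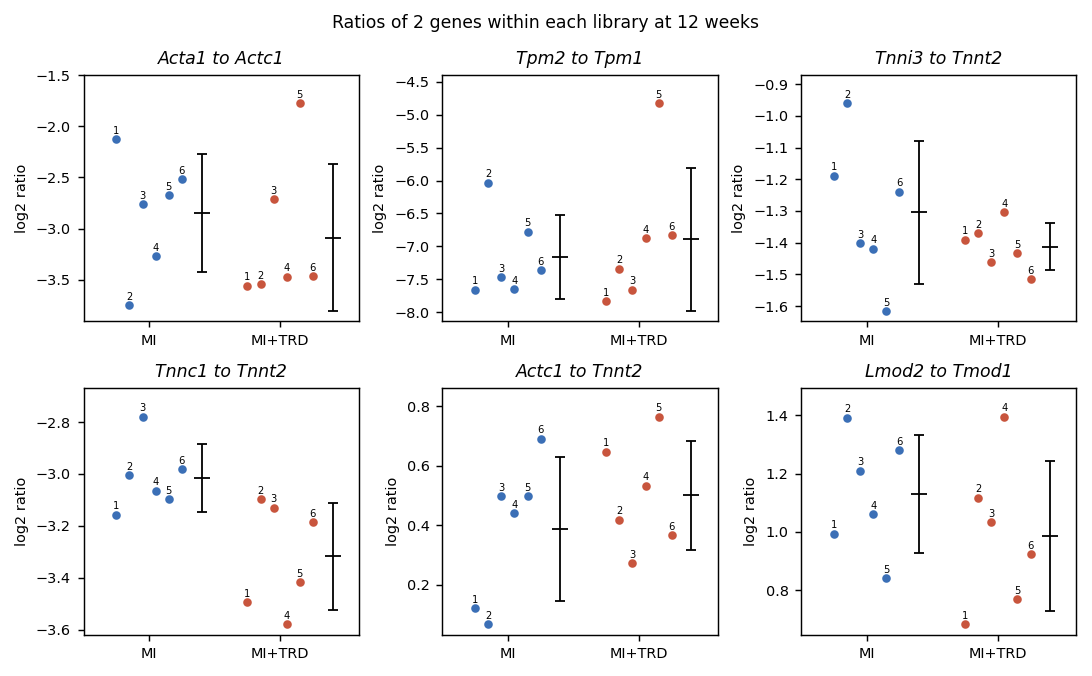
Log2 ratios of 2 thin filament genes within each library, 1 panel per ratio, with libraries numbered by replicate and the mean ± SD beside each group. The levels are not corrected for transcript length, so only differences between libraries can be read. In the Tnnc1 to Tnnt2 panel 4 MI+TRD points lie below all MI points, and in the other 5 panels the groups overlap widely.

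The thin filament can also be read against its own parts. The log2 ratio of Actc1 to Tnnt2 was 0.39 ± 0.24 over the MI libraries against 0.50 ± 0.18 over the MI+TRD ones (SD, n = 6; two-sided exact permutation p = 0.370, adjusted p = 0.555). Without MI+TRD replicates 1, 4 and 5 the difference of 0.12 turned to −0.033. No difference in the proportion of both transcripts was detectable at this spread.

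Leiomodin 2 acts at the pointed end of the filament. Lmod2 (chromosome 4, 51553439 to 51669305, plus strand) ran from 362.3 through a median of 405.7 to 499.0 in MI, and from 274.3 through 335.7 to 392.6 in MI+TRD. In MI+TRD, replicates 1, 5 and 6 lay below the lowest MI library. Against MI the log2 fold change was −0.32 (SE 0.14; limma adjusted p = 0.195), or −0.18 relative to all genes, and −0.32 relative with the trend over gene span removed. The listed span of Lmod2, 115867 bases, overlaps Iqub and Ndufa5 on the opposite strand, as Tmod1 overlaps Tstd2. Whether counting used strand is not given in the sources used here. Tnni3 lies within the span listed for Sbk1, 67368364 to 197681030 on chromosome 1, which is too long to be credible for a single gene. Listed spans were used as they stand and were not checked, so values with the span trend removed rest on them.

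Tropomodulin 1, the cap, had the smallest ratio of highest to lowest library among the 9 genes, at 1.48. Tmod1 (chromosome 5, 61635611 to 61712053, plus strand) ran from 167.1 through a median of 190.9 to 205.3 in MI, and from 139.1 through 177.1 to 191.8 in MI+TRD, with coefficients of variation of 7.50% and 12.6%. Only MI+TRD replicates 4 and 6 lay below the MI range. The log2 fold change was −0.18 (SE 0.12; limma adjusted p = 0.401), or −0.037 relative to all genes, and −0.18 relative with the trend over gene span removed (unadjusted limma p 0.0174). The log2 ratio of Lmod2 to Tmod1 was 1.13 ± 0.20 over the MI libraries against 0.99 ± 0.26 over the MI+TRD ones (SD, n = 6; two-sided exact permutation p = 0.301, adjusted p = 0.555).

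**Figure D4:**
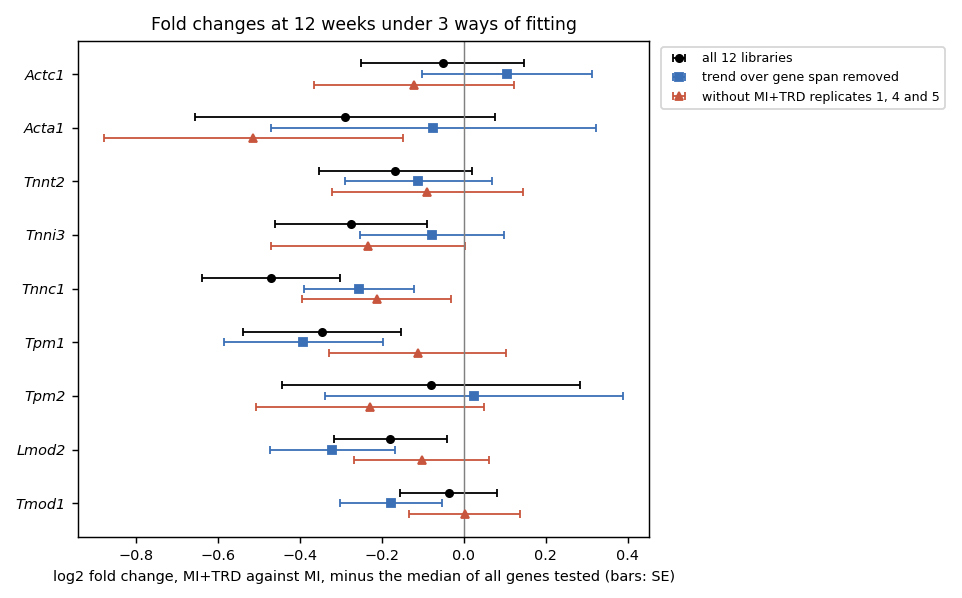
Log2 fold changes of MI+TRD against MI at 12 weeks minus the median of all genes tested, with SE, for all 12 libraries (black), with the trend over gene span removed (blue) and without MI+TRD replicates 1, 4 and 5 (red). Tnnc1 moves from −0.47 to −0.26 and −0.21, Tpm1 from −0.35 to −0.39 and −0.11, and Tnni3 from −0.28 to −0.079 and −0.23.

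The members differ in span, and short genes lay lower as a class. Actc1, Acta1, Tnni3 and Tnnc1 span up to 6 kb, a class of 1800 genes with a relative median of −0.22, of which 37.6% were lower at an unadjusted limma p below 0.05. Tnnt2, Tpm1 and Tpm2 fall among 4671 genes of 6 to 30 kb, with a relative median of −0.048 and 22.1% lower. Lmod2 and Tmod1 fall among 4152 longer genes, with 0.13 and 7.90%. Set against these medians, 8 of the 9 members lay below their class and Actc1, at −0.052, above it. By definition as many genes of a class lie below its median as above. Tpm2 lay below only narrowly, at −0.080 (SE 0.36). With the span trend removed, Actc1 and Tpm2 lay at 0.10 and 0.024 relative to all genes, and the other members at negative values. The gap to the class median was widest for Lmod2, Tpm1 and Tnnc1, which themselves lay at −0.18, −0.35 and −0.47 relative to all genes. For Lmod2 the class, and so the gap, rests on its listed span of 115867 bases, which overlaps Iqub and Ndufa5 and was not checked. It was smaller for Acta1, Tnni3, Tnnt2, Tpm2 and Tmod1. The part of gene span in these values was not tested further.

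Other heart muscle genes did not share 1 direction. Of 10 cardiomyocyte markers outside the thin filament 9 were measured, of which Mb, Myl2 and Myl3 lay lower at an unadjusted limma p below 0.05 and 0 higher, which is 33.3% against 19.1% of all genes lower, with a relative median of 0.044. Their summed level was 39886 to 63712 in MI and 32759 to 52056 in MI+TRD. The calcium pump gene Atp2a2 and the calcium release channel gene Ryr2 lay at 0.15 and 0.36 relative to all genes, while the oxygen store myoglobin (Mb) lay at −0.79. On the deposited scale Atp2a2 and Ryr2 had log2 fold changes of 0.010 and 0.22 (unadjusted limma p 0.968 and 0.288), so neither was detectably higher. In MI+TRD replicates 5, 4 and 1 Mb stood at 1631, 2304 and 3286, below the 5227 or more of the other 9 libraries, and Tpm1 had the same order. Of 9 skeletal muscle markers only Myh2 and Tnnt3 were measured, summing to 1.40 to 4.02 in MI and 0.580 to 2.25 in MI+TRD.

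Among 42 further genes of the thin filament and its assembly, 34 were tested at 12 weeks. None passed over all genes with limma, and at an unadjusted p below 0.05 there were 5 on the lower side and 0 on the higher, which is 14.7% against the 19.1% of all genes, with a relative median of 0.020. The lowest by p were Twf2, a twinfilin that caps and severs actin filaments, Srf, the serum response factor that drives muscle actin genes, and the fast skeletal troponin T gene Tnnt3. Twf2 measured 128 ± 24.8 over MI libraries and 85.9 ± 12.3 over MI+TRD libraries, which is −0.57 on the log2 scale (SE 0.14; limma adjusted p = 0.132). Srf measured 109 ± 20.9 and 80.3 ± 9.39, with −0.43 (SE 0.14; limma adjusted p = 0.132). The other 2 lower genes were the formin Fhod1 and the myosin-binding protein C gene Mybpc3, at −0.41 and −0.27 relative to all genes.
On the higher side, none at an unadjusted p below 0.05, the smallest p belonged to the capping protein subunits Capza2 and Capza1, at 0.44 and 0.28 relative to all genes, and to tropomodulin 3 (Tmod3), at 0.34.

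The minor isoforms stayed low in both groups. Slow skeletal troponin T (Tnnt1) ran from 0.245 to 1.80 in MI and 0.105 to 1.47 in MI+TRD, and Tnnt3 from 0.813 to 2.59 and from 0.0392, no reads in replicate 5, to 1.23. Their log2 fold changes were −0.41 (SE 0.49) and −1.25 (SE 0.41; limma adjusted p = 0.133). Tropomyosins 3 and 4 belong mostly to the non-muscle cytoskeleton. Tpm3 measured 37.8 ± 6.91 over MI libraries and 38.6 ± 9.23 over MI+TRD libraries (SD, n = 6), and Tpm4 55.1 ± 12.9 and 42.3 ± 12.2. The cytoplasmic actin genes Actb and Actg1 encode the actins of all cells. Actb measured 334 ± 83.8 over MI libraries and 343 ± 116 over MI+TRD libraries (SD, n = 6), and Actg1 486 ± 197 and 405 ± 135. The smooth muscle actin genes Acta2 and Actg2 had log2 fold changes of −0.21 (SE 0.32) and 0.35 (SE 0.64), with MI+TRD replicate 5 the highest library for each.

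At 6 weeks the authors' deposited table showed no difference for these genes past its threshold. Of the 9 members, 0 had a p below 0.05 in either direction, against 4.09% of all genes lower, and the share of all genes with a false discovery rate below 0.05 was 0.00%. Of the 9, 7 had a ratio below 1 in the authors' deposited table, as did 57.0% of all genes, with a median log2 ratio of −0.053 against −0.039 over all genes. The smallest p belonged to Tnni3, whose least-squares means in the authors' deposited table were 1976 in MI and 1494 in MI+TRD (log2 ratio −0.40, p = 0.0940, false discovery rate 0.689). Tnnt2 followed in size at a log2 ratio of −0.32, and Lmod2 lay the other way at 0.26, in the authors' deposited table. Tnnc1 and Tpm1 had log2 ratios of −0.19 and 0.0062 there.

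At 12 weeks the authors' deposited table had all 9 members below a ratio of 1, as were 67.3% of all genes. Of the 9, 2 (Tnnc1 and Tnni3) had a p below 0.05, against 22.0% of all genes lower, and 0 passed a false discovery rate of 0.05, which 2.94% of all genes did. For Tnnc1 the authors' deposited table gave means of 638 and 409, a log2 ratio of −0.64 and a false discovery rate of 0.0584. The members' median log2 ratio in the authors' deposited table was −0.34, against −0.16 over all genes. Whether the 6-week and 12-week differences differ from each other was not tested, as only the authors' table was used for 6 weeks.

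Set side by side, the authors' deposited means for Lmod2 were 259 in MI and 310 in MI+TRD at 6 weeks, and 434 and 343 at 12 weeks. Those for Tpm1 were 3139 and 3152 at 6 weeks, and 3914 and 2732 at 12 weeks, in the authors' deposited tables. For Tnni3 the lower mean of MI+TRD stood at both times, with 2114 and 1517 at 12 weeks in the authors' deposited table. For Acta1 the authors' deposited means were 1106 and 1080 at 6 weeks, and 995 and 785 at 12 weeks. Whether both tables were scaled together is not given in the sources used here, so no change with time is read from these means.

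**Figure D5:**
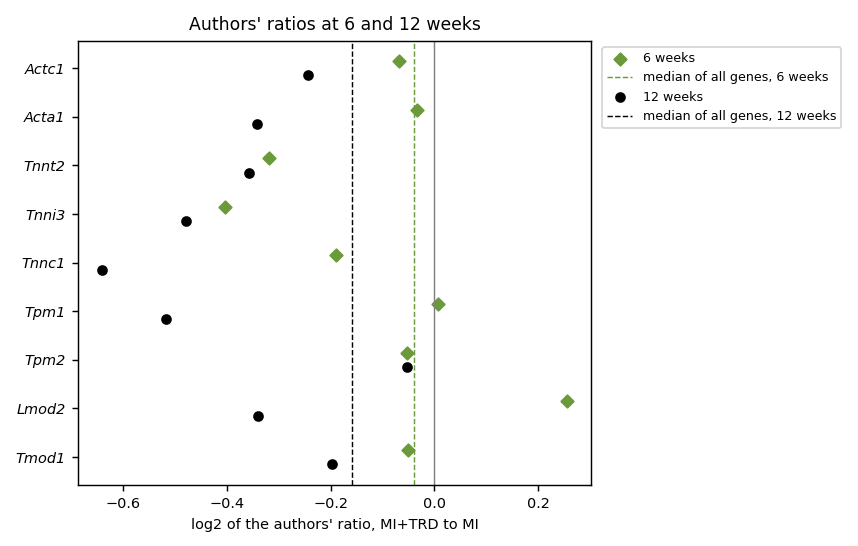
Log2 of the authors' ratio of MI+TRD to MI for the 9 thin filament genes at 6 weeks (diamonds) and 12 weeks (circles), with dashed lines at the median of all genes in each table. Lmod2 lies at 0.26 and −0.34, Tpm1 at 0.0062 and −0.52 and Tnnc1 at −0.19 and −0.64, while Tnni3 lies at −0.40 and −0.48.

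The genes outside the list whose pattern over libraries was most like that of the members were found by Pearson's r over the 12 libraries, after group means and library medians had been taken out. The highest median r over the 9 members belonged to the ATP synthase gamma subunit gene Atp5c1 (0.66), the aspartate aminotransferase gene Got1 (0.64) and the acyl-CoA thioesterase gene Acot13 (0.63). Dnajc30, the mitochondrial elongation factor gene Gfm1 and the fatty acid oxidation gene Acadvl followed, at 0.62, 0.62 and 0.61. For all 6 genes the lowest r was that with Tpm2, between −0.59 and −0.23. These r describe 12 libraries in which all genes share the same depth.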

How the data were processed

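Polyadenylated RNA of rat myocardium was sequenced (Illumina), as the labels' protocols state. Partek and the build rn6 are named by the submitters' processing notes; the aligner, counter, scaling and use of strand were not given in the sources used here. The deposited signal is a normalized count per gene and library, per the file headers. Low values were whole multiples of each library's smallest value (97.2% to 98.6% of values up to 20 steps, within 0.1 of a whole number), so reads were taken as the multiple minus 1, unchecked for high values. The authors' tables give a p-value, a step-up false discovery rate, a linear ratio, a signed fold change and least-squares means, per the file headers.

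The test at 12 weeks was limma 3.58.1 (trended eBayes, two-sided, no covariates) on log2(value + 0.229, the worth of 5 reads), for the 10623 genes with a mean worth at least 10 reads, with Benjamini-Hochberg adjustment over all of them at a threshold of 0.05. Fold changes on this scale understate changes of low genes. On recovered reads edgeR 4.0.16 and DESeq2 1.42.0 were alternatives. Ratios were compared by exact permutation over all assignments. The steps were tested on simulated data. Members, lists and the libraries left out together were chosen with earlier results of these data known. Named were the 9 members, the 3 highest and 3 lowest further thin filament genes by p with minor isoforms, and the 6 genes of most like pattern. Other genes were named after their values were seen.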

Additional observations from a re-analysis of the deposited data

Results flagged for a closer look

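In all, 4 values stood apart from their group by Dixon's gap-to-range measure at its 95% level, among 30 groups of 6 libraries examined, of which chance flags about 1 in 20. Acta1 in MI+TRD replicate 5, at 1828, had a gap of 0.708 of the group's range. Tpm2 stood out in both groups, at 52.5 in MI replicate 2 (0.748) and at 71.0 in MI+TRD replicate 5 (0.785). The log2 ratio of Tpm2 to Tpm1 in MI+TRD replicate 5 was −4.82 (0.667). Both libraries also led in smooth muscle or atrial markers, as given beside these genes in the text.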

How the results depend on the processing

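The count of members lower at an unadjusted p below 0.05, 4 of 9, was 1 with median ratio scaling, equal totals, quantile normalization and edgeR, 2 with DESeq2, and 0 without MI+TRD replicates 1, 4 and 5. Leaving out 1 library gave 2 to 4, the 2 coming when MI replicate 2, or 1 or 6 of MI+TRD, was left out. Genes called over the whole table numbered 0 with limma (unadjusted p below 0.05 for 297 higher and 2034 lower), 0 with edgeR (881 and 777) and 18 with DESeq2, none of them a member. Not taken relative to all genes, log2 fold changes of Actc1, Tpm2 and Tmod1 were 0.043, 0.012 and 0.058 after rescaling to equal totals. After quantile normalization those of Actc1, Tnnt2, Tpm1 and Tmod1 were 0.086, 0.13, 0.086 and 0.025. Tpm2 lay at 0.12 with edgeR and 0.12 with DESeq2. Of the ratios, Tnni3 to Tnnt2 turned to 0.033 with the span trend removed, and Tpm2 to Tpm1 and Actc1 to Tnnt2 turned to −0.12 and −0.033 without MI+TRD replicates 1, 4 and 5. With single libraries left out, Tnnc1 to Tnnt2 ran from −0.35 to −0.25 (exact permutation adjusted p 0.0260 without MI+TRD replicate 2 or 3, 0.0519 to 0.195 otherwise) and Tpm2 to Tpm1 from −0.15 to 0.49. The cause of these changes was not tested. The labels do not say whether replicate numbers pair the libraries, and r of same-numbered deviations was mixed, from −0.33 to 0.33. With the replicate block 1 member (Tnnc1) was lower at an unadjusted p below 0.05. With the span trend removed the 4 members were Tnnc1, Tpm1, Lmod2 and Tmod1. Counts split 797 higher and 877 lower with median ratios, 1206 and 412 with equal totals, 695 and 1043 with quantile normalization and 942 and 764 with DESeq2. The exact Wilcoxon test had 5 members lower, with Tnnt2. Relative to all genes, Actc1, Tpm2 and Tmod1 lay near 0 and turned: Actc1 to 0.10 with the span trend removed, Tpm2 to 0.13 without MI+TRD replicate 1 and Tmod1 to 0.035 without MI+TRD replicate 6. Single members crossed an unadjusted p of 0.05 in further settings, and none passed over all genes in any. Depth limited Tnnt3 and Tnnt1, near 0 reads in some libraries.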
